A study of Arabidopsis thaliana with 44 samples.

Results

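The genes described here are the nuclear genes of Arabidopsis thaliana, AT1G to AT5G, compared between ddm1 mutant and wild-type shoot apices. Of the 44 libraries of the series, 12 were compared: 4 of ddm1, 4 of the wild type labelled wt21 and 4 of the wild type labelled wt col-0, each with replicate numbers 1 to 4. All 12 came from the Col-0 ecotype, from seedlings grown in soil under 16 h light and 8 h dark whose apices were collected 7 days after germination. Smart-seq3, a full-length cDNA method, was applied to their TRIzol-extracted RNA. The ddm1 allele, the number of selfed generations behind the mutant seed, and what separates wt21 from wt col-0 are not given in the sources used here. Nor is it said whether libraries came from separate plants or pools, so p-values measure the spread between libraries, which may be technical. The table lists 29417 nuclear genes, and 15472 had enough counts to be tested, 15225 of them protein-coding. Transposable elements entered the same fit and are given only as a total.

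DDM1 (DECREASE IN DNA METHYLATION 1) is a SWI2/SNF2-type chromatin remodeler that lets DNA methyltransferases reach DNA wrapped in histone H1-rich heterochromatin. Without it, CG methylation and histone H3 lysine 9 methylation are lost over transposons and repeats, and many of these become transcribed. Some protein-coding genes are silenced in the wild type through methylated repeats at their 5′ end and are expressed when that methylation is lost. FWA, a homeodomain transcription factor that delays flowering, and SDC, an F-box protein, are textbook examples. Losing methylation can also lower a gene: the DNA demethylase gene ROS1 is known to be transcribed less when its promoter is unmethylated.

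The windows around the starts of 4 genes known to be methylated in wild-type plants are shown because their transcripts were nearly confined to ddm1 among these libraries. Each runs from 250 bases before to 50 bases into the transcript start of the RefSeq annotation (assembly TAIR10.1), on the plus strand: chr4:13038110-13038409 for FWA, chr2:7681912-7682211 for SDC, chr3:12348797-12349096 for QQS and chr5:13689567-13689866 for MRU1. Capitals mark both copies of the longest exact direct repeat in each window.
FWA: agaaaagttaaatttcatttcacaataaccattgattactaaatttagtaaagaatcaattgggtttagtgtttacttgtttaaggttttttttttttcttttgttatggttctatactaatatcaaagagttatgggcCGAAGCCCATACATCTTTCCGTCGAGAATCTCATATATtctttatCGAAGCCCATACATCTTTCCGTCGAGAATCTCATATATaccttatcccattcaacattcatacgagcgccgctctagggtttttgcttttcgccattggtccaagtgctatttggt
SDC: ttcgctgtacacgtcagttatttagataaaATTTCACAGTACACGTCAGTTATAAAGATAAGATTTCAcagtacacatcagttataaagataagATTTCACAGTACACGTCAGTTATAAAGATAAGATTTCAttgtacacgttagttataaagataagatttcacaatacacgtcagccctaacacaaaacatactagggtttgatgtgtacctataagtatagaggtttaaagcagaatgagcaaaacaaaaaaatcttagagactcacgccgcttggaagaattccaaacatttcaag
QQS: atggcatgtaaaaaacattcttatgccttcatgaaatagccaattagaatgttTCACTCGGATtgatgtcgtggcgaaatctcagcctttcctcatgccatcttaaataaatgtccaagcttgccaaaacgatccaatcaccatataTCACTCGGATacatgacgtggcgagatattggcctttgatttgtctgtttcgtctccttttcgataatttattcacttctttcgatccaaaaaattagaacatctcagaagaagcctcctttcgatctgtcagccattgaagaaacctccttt
MRU1: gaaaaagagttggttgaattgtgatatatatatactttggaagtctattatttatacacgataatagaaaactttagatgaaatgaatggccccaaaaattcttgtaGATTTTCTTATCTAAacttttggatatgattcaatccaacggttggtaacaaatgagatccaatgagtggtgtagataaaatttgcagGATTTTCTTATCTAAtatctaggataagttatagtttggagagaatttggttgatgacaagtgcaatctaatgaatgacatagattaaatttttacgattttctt
FWA and SDC each held a repeat of 38 bases, at -111 and -66 in FWA and at -220 and -156 in SDC, counted from the transcript start at 0. A repeat at least that long was present in 54 of 27443 windows of the same length (0.197%). MRU1 held a repeat of 15 bases (5.76% of windows had one as long) and QQS one of 10 bases (34.6%), against a median of 9 bases over all windows.

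The targeted gene was checked first. DDM1 stood at 0.150, 0.554, 0.415 and 0.446 CPM (counts scaled to a fixed effective library total) in the 4 ddm1 libraries and at 8.48 to 14.6 CPM (median 11.5) in the 8 wild-type libraries. The groups did not overlap, and the log2 fold change was -4.72 (SE 0.27, adjusted p = 1.37e-10). Library totals were 6516886 to 10620084 counts in ddm1 and 4985458 to 6577648 in wild type, so that 3 counts, the upper limit for a gene at 0, equal 0.237 to 0.657 CPM. Transposable elements took 4.98% ± 0.358 (SD, n = 4) of counts in ddm1 and 0.137% ± 0.0149 (SD, n = 8) in wild type, a 36.4-fold difference (exact two-sided permutation test, p = 0.00404, the smallest that 4 against 8 libraries allow). Organelle transcripts took 2.29% to 11.7% of counts in ddm1 and 7.70% to 14.4% in wild type, lowest in ddm1 replicate 2. Of the markers of the tissue, the meristem gene STM was present in all 12 libraries at 3.17 to 8.03 CPM. The stem-cell genes WUS (0 to 0.138 CPM) and CLV3 (0 to 0.437 CPM) were at or near 0 in all of them.

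Of the 15472 nuclear genes tested, 1420 were higher in ddm1 (9.18%) and 1342 were lower (8.67%) at an adjusted p under 0.05 (edgeR quasi-likelihood test, Benjamini-Hochberg). These are the genes said below to have risen or fallen. Most changes were small: 83.2% of the genes that rose and 78.1% of those that fell changed by less than 2-fold, with median sizes of 0.57 and 0.65 on the log2 scale. Over 2-fold, 239 genes were higher (1.54%) and 294 lower (1.9%). The median log2 fold change over all genes tested was 0.01. In 1322 of the 2762 called genes the CPM ranges of mutant and wild type did not overlap, 615 of them higher and 707 lower. Of the called genes, 68, 49 of them protein-coding, had at most 3 counts in every wild-type library, and 7 had at most 3 counts in every ddm1 library. Such genes passed the filter on counts only through the group where they were high, and 3 counts are a higher CPM in the shallower wild-type libraries, so the 2 numbers are not compared. Of 926 transcribed pseudogenes, 55 passed the filter, and 15 of these were higher and 2 lower; those silent in wild type passed only through ddm1, so the counts are a description. Genes were called on all 5 chromosomes in like proportion, 8.33% to 9.93% higher and 8% to 9.82% lower.

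**Figure D1:**
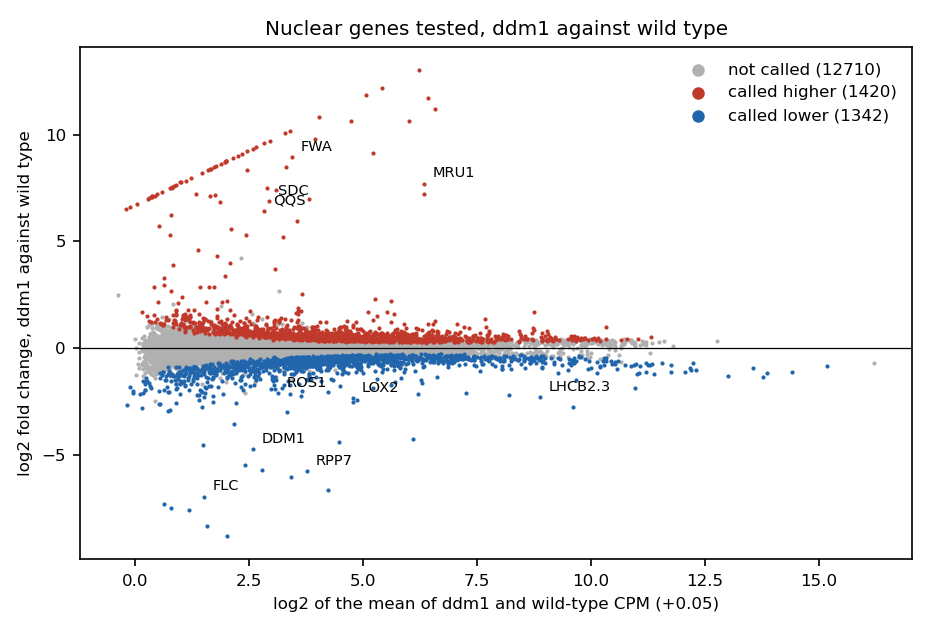
Log2 fold change of ddm1 against wild type (y axis) against the log2 mean CPM of both groups (x axis) for the 15472 nuclear genes tested; red and blue points are the 1420 genes called higher and the 1342 called lower. Most coloured points lie within 2-fold of 0, and the straight upper line of red points holds genes with 0 counts in wild type, whose fitted fold is set by the level in ddm1.

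The genes gained in ddm1 with the smallest p are mostly of unknown function. AT5G26270, an uncharacterized protein, had 151, 181, 155 and 153 CPM in ddm1 and 0.555 to 1.83 CPM in wild type (log2 fold change 7.24, SE 0.15, adjusted p = 1.02e-15). AT3G01345, also uncharacterized, had 239, 185, 174 and 163 CPM in ddm1 and only 3 counts in all wild-type libraries together, a ratio of 2776 (95% counting interval 950 to 13470, for counting error only). AT2G34655 had 134, 112, 159 and 111 CPM, again against 3 wild-type counts, a ratio of 1861 (636 to 9028). No wild-type library reached 2 CPM for any of these 3 genes. AT5G34869 (82.9, 88.8, 80.3 and 86.7 CPM) had 0 counts in all 8 wild-type libraries and was at least 1277-fold higher in ddm1, with the floor of 3 counts taken over the wild-type group. AT5G41660 (70.8, 67.5, 61.5 and 65.4 CPM) and AT2G19850, named a transcription repressor in RefSeq (33.9, 35.7, 29.2 and 32.1 CPM), were likewise at 0 in wild type and at least 991-fold and 494-fold higher. All of these genes were high in every ddm1 library. That no groups overlapped was a condition for naming them, and those at 0 in wild type passed the filter on counts only through ddm1. AT5G45095 was at 63.7 to 85.2 CPM against 0 to 0.973.

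Genes with a known product also came on. HISN6B, a copy of the histidinol-phosphate aminotransferase gene of histidine synthesis, had 27.9, 28.5, 24.1 and 30.4 CPM in ddm1 and 0 to 0.555 CPM in wild type (log2 fold change 6.99, SE 0.30, adjusted p = 3.27e-12); how reads shared with its near-identical partner were assigned is not given. The neighbouring MADS-box genes AT1G59930 and AT1G59920 rose together. AT1G59930 had 29.4, 27.9, 23.8 and 41.8 CPM against 1 count in wild type (ratio 1412, 253 to 55810), and AT1G59920 had a mean of 8.77 CPM in ddm1 against 0. MRU1, named for its rise in the methionine-overproducing mto1 mutant, had 118, 171, 163 and 194 CPM against 0.313 to 1.48 (log2 fold change 7.71, SE 0.19, adjusted p = 3.2e-15). All of the genes named in this and the preceding paragraph as gained with the smallest p were called under each of the 25 alternative analyses.

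Of 8 genes listed as known targets of methylation-dependent silencing or regulation, 7 were tested, 4 rose and 1 fell. The 4 that rose, FWA, SDC, QQS and MRU1, passed the filter on counts only through ddm1. The list was also made of genes already known to depend on methylation, so the counts are a description and no share is compared. FWA had 22.3, 8.94, 34.8 and 20.15 CPM in ddm1 and 2 counts in all wild-type libraries together, both in wt col-0 replicate 3, a ratio of 438.7 (95% counting interval 121 to 3630). SDC had 22.5, 17.9, 9.97 and 10.2 CPM against 0 to 0.437 (log2 fold change 6.89, SE 0.45, adjusted p = 8.56e-10). QQS, an Arabidopsis-specific gene that affects starch content, had 16.2, 9.81, 19.5 and 10.4 CPM against 0 to 0.555 (log2 fold change 6.42, SE 0.42, adjusted p = 1.1e-09). FWA was lowest in ddm1 replicate 2 and highest in replicate 3, and SDC was higher in replicates 1 and 2, but every ddm1 library was above every wild-type library for all 3 genes. MRD1 (50.5 to 61.2 CPM in ddm1, 40.0 to 57.8 in wild type) and APC13, the BONSAI gene (3.88 to 7.76 against 4.49 to 8.46), overlapped between groups and were not called.

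RPP7 was the member that fell. RPP7 encodes an NB-LRR immune receptor against downy mildew, and its full-length transcript reads through a methylated transposon in its first intron. It had 0.450, 0.554, 0.415 and 0.446 CPM in ddm1 and 16.8 to 40.1 CPM (median 24.3) in wild type, a log2 fold change of -5.75 (SE 0.28, adjusted p = 1.61e-11). ROS1, of the methylation-upkeep list, fell from 14.2 ± 3.28 CPM (SD, n = 8) to 3.23 ± 0.692 CPM (SD, n = 4), a log2 fold change of -2.102 (SE 0.21, adjusted p = 3.84e-07). In that list of 27 genes, 24 were tested, 1 rose (4.17%) and 4 fell (16.7%, against 8.67% of all genes), DDM1 itself included. CMT2, the methyltransferase of long heterochromatic transposons, fell by 0.85 on the log2 scale (9.44 against 17.1 CPM, adjusted p = 0.00211), and MOM1, a silencing factor that acts without changing methylation, fell by 0.61. VIM1, which binds hemimethylated CG sites and recruits MET1, rose by 0.43 (29.9 to 34.9 CPM against 19.95 to 29.2). MET1, the CG maintenance methyltransferase, was at 28.2 to 30.3 CPM in ddm1 and 20.118 to 31.3 in wild type and was not called. Of 20 small-RNA pathway genes tested, 1 rose and 1 fell (5% each, below the 9.18% and 8.67% of all genes). AGO1 rose (0.48) and NRPE1, the largest subunit of RNA polymerase V, fell by 0.70 on the log2 scale.

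**Figure D2:**
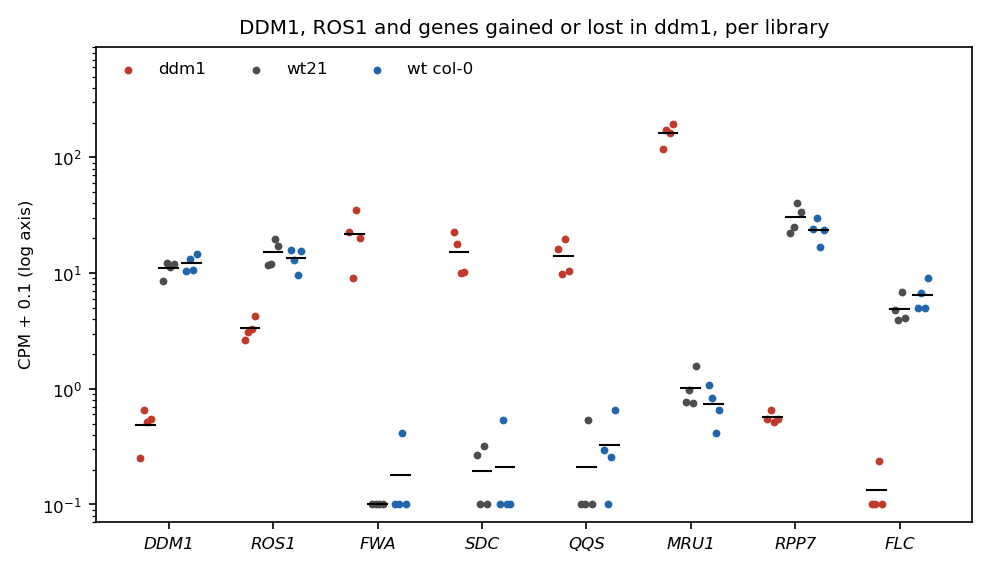
CPM plus 0.1 on a log axis for DDM1, ROS1, 4 genes gained (FWA, SDC, QQS, MRU1) and 2 lost (RPP7, FLC) in ddm1; each point is 1 library and each bar the mean of a group of 4. No ddm1 library overlaps a wild-type library for any of the 8 genes; ddm1 MRU1 runs from 118 to 194 CPM and wild type from 0.313 to 1.48.

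The genes lost with the smallest p included several that nearly disappeared. AT4G10060, a GBA2-type beta-glucosidase, had 2.099, 1.42, 3.46 and 1.43 CPM in ddm1 and 36.7 to 48.0 CPM (median 42.4) in wild type (log2 fold change -4.40, SE 0.20, adjusted p = 8e-12). AT1G52000, a mannose-binding jacalin-type lectin, had 0.450, 0.0791, 0.554 and 0.446 CPM against 25.9 to 48.7 (log2 fold change -6.64, SE 0.31). AT1G67950, an RNA-binding protein with an RRM motif, had 0.0892 to 0.450 CPM against 9.997 to 17.1 (log2 fold change -5.69, SE 0.29). All ddm1 libraries were below 1 CPM for the last 2. AT3G16670, a Pollen Ole e 1 family protein, was at 0.150, 0, 0 and 0.892 CPM against 11.9 to 29.6 (log2 fold change -6.05, SE 0.42). AT3G28220, a TRAF-like protein, fell to 6.06 to 8.85 CPM from 67.6 to 172 (log2 fold change -4.24, SE 0.23). Among abundant transcripts, TIP2, a tonoplast aquaporin, had 258, 210, 179 and 173 CPM against 1051 to 1713 (log2 fold change -2.74, SE 0.18, adjusted p = 1.27e-09). The MADS-box gene AGL87 (3.60 to 5.17 against 12.1 to 25.2 CPM) and the dehydrogenase gene AT1G22430 (9.30 to 11.8 against 24.6 to 31.7 CPM) fell by 2.24 and 1.42 on the log2 scale. Each of these genes and FLC, below, was called in all 25 alternative analyses.

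The flowering-time genes that fell were FLC and its relatives. FLC, the MADS-box repressor that is shut off by vernalization, was at 0, 0, 0.138 and 0 CPM in ddm1, 1 count in all, and at 3.84 to 8.89 CPM (median 4.86) in wild type. The pooled ratio was 210.5-fold lower in ddm1 (95% counting interval 37.4 to 8349), and the groups did not overlap. Its relatives MAF1 (2.93 to 5.71 against 10.03 to 13.6 CPM, log2 fold change -1.42, SE 0.18), MAF4 (0 to 1.38 against 0.874 to 3.94 CPM, -2.07, SE 0.47) and MAF5 (1.05 to 1.52 against 2.85 to 6.77 CPM, -1.85, SE 0.27) also fell. SEP3, a floral-organ identity factor, rose by 1.22 (SE 0.39, adjusted p = 0.0292) at low level, 1.25 to 4.65 against 0.212 to 2.22 CPM, with overlapping groups. SOC1, a floral integrator repressed by FLC, was at 2.22 to 5.40 CPM in ddm1 and 1.48 to 6.32 in wild type and was not called. Over the list of 29 genes, 14 were tested, 2 rose (FWA and SEP3) and 4 fell (28.6%, against 8.67% of all genes).

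Photosynthesis transcripts formed the broadest shift. All 48 listed genes for light-harvesting proteins, photosystem subunits, electron carriers and the Calvin cycle were tested, and 47 fell (97.9%, against 8.67% of all nuclear genes), and none rose with edgeR, DESeq2 or limma voom (0 higher at an unadjusted p under 0.05). Their median log2 fold change was -0.81 (0.01 over all genes tested), 15 fell by more than 2-fold, and in 44 the ranges of mutant and wild type did not overlap. Of all nuclear genes called lower, 707 of 1342 had ranges that did not overlap. That is a share of called genes, whereas the 44 are of all 48 members tested. The share over all genes tested was not computed, so the 44 are a description and are not compared. Summed over the list, the level was 150280, 131130, 97000 and 134230 CPM in ddm1 and 211480 to 302790 CPM (median 251180) in wild type, so that every ddm1 library lay below every wild-type library. In bulk RNA of an apex with young leaves, fewer photosynthetic cells and less RNA per cell cannot be told apart.

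LHCB2.3, a protein of the photosystem II antenna, changed most. It had 154, 190, 104 and 189 CPM in ddm1 and 616 to 944 CPM (median 802) in wild type, a log2 fold change of -2.30 (SE 0.18, adjusted p = 1.22e-08). LHCB1.4 followed (605 to 966 against 2126 to 4826 CPM, log2 fold change -1.87, SE 0.23). The 3 clustered genes LHCB1.1, LHCB1.2 and LHCB1.3 fell by 1.36, 1.32 and 1.11 on the log2 scale, and the photosystem I antenna genes LHCA1 to LHCA4 by 1.015, 0.80, 1.14 and 1.104. RCA, which reactivates Rubisco, had 2545, 1885, 2285 and 2192 CPM against 4054 to 5504 (log2 fold change -1.09, SE 0.13, adjusted p = 4.39e-06). RBCS1A, the main Rubisco small-subunit gene, had 22190 to 29297 CPM against 41620 to 53955 (log2 fold change -0.82, SE 0.17). The smallest changes were those of the cytochrome b6f subunit gene PETC (-0.44) and the plastocyanin gene PETE1 (-0.52). RBCS1B was the exception, at 595 to 1661 CPM in ddm1 and 1399 to 3046 in wild type (log2 fold change -0.65, SE 0.26, adjusted p = 0.0794). The LHCB1, LHCB2 and RBCS genes are near-identical copies, so single values within these families are uncertain.

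The G-box CACGTG, bound by bZIP and bHLH factors of light signalling, is shown in the window of LHCB2.3 (chr3:10255656-10255955, plus strand, same assembly and window), where it lies at -88 and is in capitals. The same letters, which read alike on both strands, were present in the windows of 14 of the 48 listed photosynthesis genes (29.2%) and of 7.68% of all 27443 windows.
LHCB2.3: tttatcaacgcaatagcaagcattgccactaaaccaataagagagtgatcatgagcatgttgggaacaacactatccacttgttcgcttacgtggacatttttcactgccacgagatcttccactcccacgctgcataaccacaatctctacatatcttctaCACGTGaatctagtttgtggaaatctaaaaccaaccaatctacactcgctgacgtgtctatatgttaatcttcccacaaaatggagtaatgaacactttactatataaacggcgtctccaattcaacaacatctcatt
All 14 were among the 47 that fell, as were 33 without the letters in this window.

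Photosynthesis levels also differed among wild-type libraries, and the clock genes differed with them. LHY, a dawn-peaking clock repressor, stood at 63.2, 60.5, 167 and 171 CPM in wt21 replicates 1 to 4 and at 149, 166, 86.8 and 83.1 CPM in wt col-0 replicates 1 to 4. The summed photosynthesis level in the same order was 302790, 295540, 225340 and 263820 CPM in wt21 and 223290, 211480, 254540 and 247830 CPM in wt col-0. Within each wild type the sum was lower in the 2 libraries with more LHY. In ddm1 LHY was at 86.4, 78.1, 140 and 104 CPM, within the wild-type range, and the library with most LHY, replicate 3, had the lowest photosynthesis sum. The part of this difference between libraries in the result was not tested. Time of day of collection is not given in the sources used here. The size of the shift depended on the controls: 47 members were lower against wt21 alone (median -0.95), 35 against wt col-0 alone (-0.70), and 11 against wild-type replicates 5 to 8 (-0.26), libraries of the same labels that stand apart from replicates 1 to 4.

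Of 19 clock genes tested, 2 fell (10.5%, near the 8.67% of all genes), and the median was -0.21. LNK2, a coactivator in the morning loop, fell by 0.75 (43.0 to 62.3 against 68.5 to 113 CPM, SE 0.13, adjusted p = 0.000272) and RVE4, a related activator, by 0.45 on the log2 scale. CCA1 and LHY, the central morning genes, were not called, at 34.98 to 68.0 against 29.2 to 88.0 CPM for CCA1. Against wild-type replicates 5 to 8, 2 clock genes were higher and 6 lower, and LNK2 was at 0.11.

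**Figure D3:**
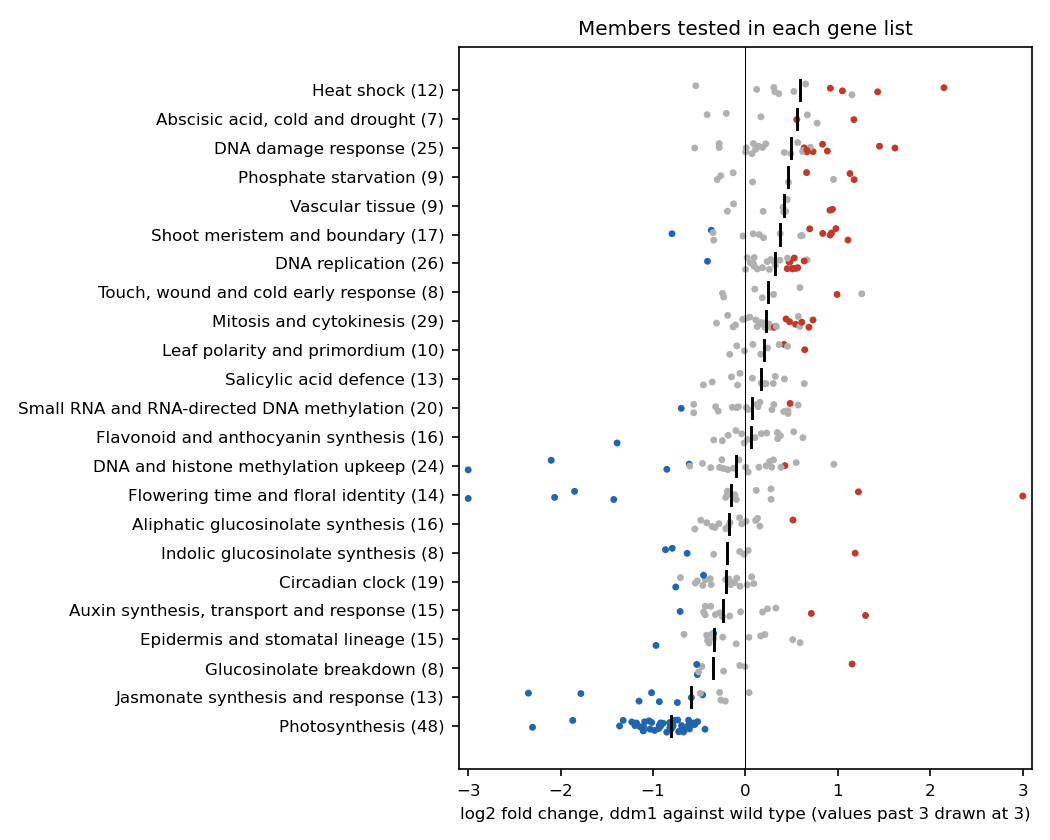
Log2 fold change of ddm1 against wild type for the members tested in 23 gene lists, with the number tested in brackets; each point is a gene, red called higher, blue called lower, grey not called, and the bar is the median. Photosynthesis lies apart at the bottom with 47 of 48 members called lower and a median of -0.81; values past 3 are drawn at 3.

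Genes of jasmonate synthesis and response were the list with the next largest share of members that fell among those with 10 or more tested. Of 24 genes 13 were tested and 8 fell (61.5%, against 8.67% of all genes), with a median of -0.59 and none higher with edgeR or DESeq2 (0 at an unadjusted p under 0.05). LOX2, the plastid lipoxygenase at the start of the pathway, had 9.75, 8.63, 9.83 and 6.51 CPM in ddm1 and 19.6 to 83.1 CPM (median 42.1) in wild type, without overlap (log2 fold change -2.35, SE 0.21, adjusted p = 6.79e-08). It was called in all 25 alternative analyses. Downstream in the pathway, AOS fell by 0.46, AOC1 by 1.78 and AOC2 by 1.15 on the log2 scale. MYC2, the master transcription factor, fell by 0.59, its repressors JAZ2 and JAZ9 by 0.74 and 1.02, and the storage-protein marker VSP2 by 0.93. All 7 genes other than LOX2 overlapped between groups, and against wt col-0 alone 3 of the 8 were called. Wild-type libraries differed in the summed level, 181 to 273.5 CPM in wt21 and 114 to 184 CPM in wt col-0, against 83.3 to 109 CPM in ddm1. Salicylic acid defence, often opposed to jasmonate, had 0 of 13 genes called with edgeR, DESeq2 or limma voom and 0 at an unadjusted p under 0.05 (median 0.17), and its marker PR1 was at 0 counts in all 12 libraries.

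**Figure D4:**
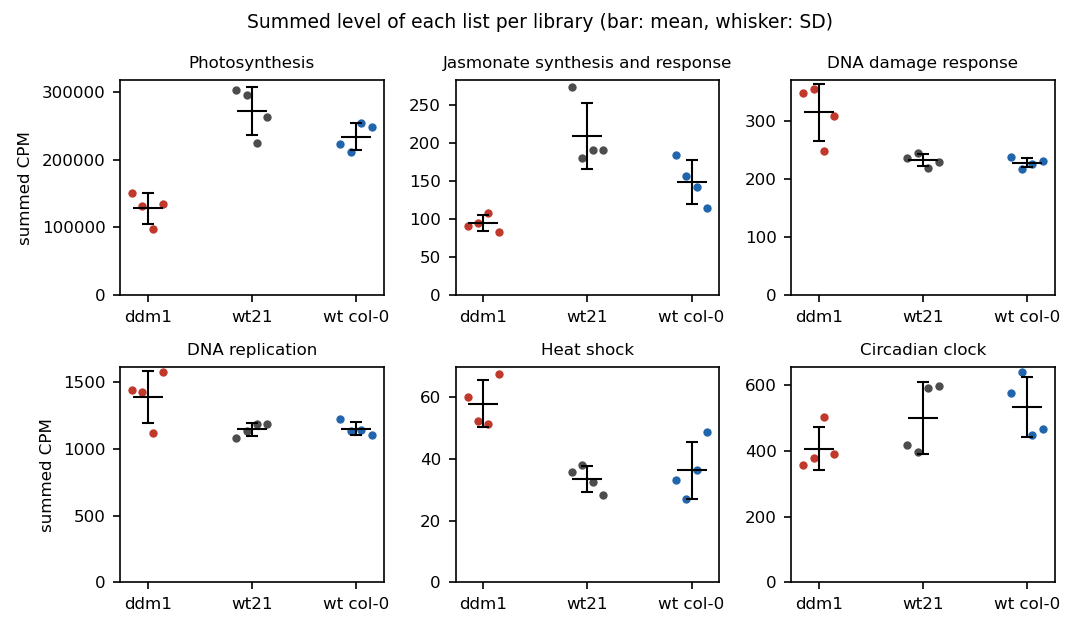
Summed CPM of all members of 6 lists in each library; each point is 1 library, the bar the mean and the whisker the SD of 4 libraries. Photosynthesis and jasmonate sums are lower in all 4 ddm1 libraries than in any wild-type library, and DNA damage and heat shock sums higher; replication, with ddm1 replicate 3 at 1118 CPM, and the clock overlap.

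Genes of the DNA damage response are activated in plants by the NAC factor SOG1. Of 25 tested, 8 rose (32%, against 9.18% of all genes), none fell with edgeR or DESeq2 (1 at an unadjusted p under 0.05), and the median was 0.49. XRI1, needed for repair of X-ray damage and for meiosis, had 8.85, 10.603, 8.86 and 7.40 CPM in ddm1 and 3.45 to 6.12 CPM (median 4.94) in wild type, without overlap (log2 fold change 0.89, SE 0.18, adjusted p = 0.0011). CYCB1;1, the B-type cyclin kept high at damaged G2 cells, had 15.74, 12.3, 12.3 and 10.9 CPM against 6.14 to 8.93 (log2 fold change 0.73, SE 0.14, adjusted p = 0.000785). RAD17, a checkpoint clamp loader, rose by 1.45 (SE 0.33), NAC103, a target of SOG1, by 1.62 (SE 0.45), and TSO2, a ribonucleotide reductase subunit, by 0.64 (SE 0.15), each with overlapping groups. PARP2, SYN2 and RAD54 rose by 0.66 to 0.83 and kept the call in 14, 13 and 9 of 25 alternative analyses. NAC044, the close partner of NAC103, did not pass the filter on counts, at 1.1996, 2.45, 1.38 and 3.92 CPM against 0 to 0.524. BRCA1 (4.02 to 5.62 against 2.18 to 6.03 CPM) and WEE1 (3.12 to 5.86 against 0.657 to 3.33) were not called. The summed level was 249 to 355 CPM in ddm1, lowest in replicate 3, and 218 to 245 CPM in wild type. Against wild-type replicates 5 to 8, 6 members were higher and 1 lower with a median of 0.13, and CYCB1;1 and TSO2 were among the calls lost.

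The SOG1 palindrome CTTNNNNNNNAAG is shown in the window of NAC103 (chr5:25635740-25636039, minus strand, same assembly and window), where it begins at the transcript start and is in capitals.
NAC103: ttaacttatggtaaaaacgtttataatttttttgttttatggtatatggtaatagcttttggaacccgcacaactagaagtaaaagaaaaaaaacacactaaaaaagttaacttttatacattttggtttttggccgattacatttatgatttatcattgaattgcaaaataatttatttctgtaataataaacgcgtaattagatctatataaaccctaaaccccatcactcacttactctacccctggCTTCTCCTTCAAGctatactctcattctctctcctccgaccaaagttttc
These letters, alike on both strands, were in the windows of 12 of 31 listed damage genes (38.7%) and of 11.8% of all windows. Of the 8 that rose, PARP2, NAC103 and RAD54 held them.

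Of 26 replication genes tested, 9 rose (34.6%, against 9.18% of all genes) and 1 fell (3.85%, against 8.67%), with a median of 0.32. MCM5, a subunit of the replicative helicase, had 22.2, 26.7, 24.0 and 18.01 CPM in ddm1 and 13.5 to 17.7 CPM in wild type (log2 fold change 0.55, SE 0.12, adjusted p = 0.00371), without overlap. MCM2, MCM4 and MCM7 rose by 0.45 to 0.53, the sliding-clamp genes PCNA1 and PCNA2 by 0.48 and 0.47, and POLA2 of the primase complex by 0.51. The ribonucleotide reductase gene RNR2A fell by 0.41 while its paralog TSO2 rose. Of 29 mitosis and cytokinesis genes tested, 7 rose (24.1%, against 9.18% of all genes) and none fell with edgeR or DESeq2 (1 at an unadjusted p under 0.05). They were CYCB1;1, CYCB1;3, the B-type kinases CDKB1;1, CDKB1;2 and CDKB2;1, the Aurora kinase AUR2, and CDC20.2 of the anaphase-promoting complex, by 0.31 to 0.73. Against wild-type replicates 5 to 8 none of the 26 replication genes was higher and 2 were lower (median -0.08), and 0 of the mitosis genes were called. Replicate 3 was the lowest of the ddm1 libraries in both summed levels, 1118 and 526 CPM, within the wild-type ranges of 1085 to 1225 and 502 to 619 CPM.

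The E2F consensus TTTCCCGC was searched on both strands, and its place in the window of MCM5 (chr2:3527451-3527750, minus strand, same assembly and window), at -19, is in capitals.
MCM5: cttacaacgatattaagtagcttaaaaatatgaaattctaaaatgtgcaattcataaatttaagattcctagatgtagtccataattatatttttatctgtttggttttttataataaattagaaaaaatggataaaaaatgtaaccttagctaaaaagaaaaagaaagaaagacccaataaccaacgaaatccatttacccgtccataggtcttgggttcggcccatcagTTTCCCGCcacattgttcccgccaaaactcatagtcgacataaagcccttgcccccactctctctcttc
It was in the windows of 8 of 27 listed replication genes (29.6%) and of 0.798% of all windows, and MCM2, MCM5 and POLA2 held it among those that rose. The mitosis-specific activator core AACGG was in the windows of 20 of 30 mitosis genes (66.7%, all windows 24.7%), 4 of the 7 that rose among them. The evening element AAATATCT was in those of 7 of 24 clock genes (29.2%, all windows 5.65%), with 0 of the 2 that fell among them. The W-box TTGACC was in the window of 1 of 27 salicylic acid defence genes (3.7%, all windows 14.2%), a list with 0 genes called.

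Heat-shock genes were called in one direction only. Of 12 tested, 4 rose (33.3%, against 9.18% of all genes) and none fell with edgeR or DESeq2 (0 at an unadjusted p under 0.05), with a median of 0.59. HSP70-4, a cytosolic chaperone, had 10.3, 9.97, 14.8 and 18.3 CPM in ddm1 and 2.98 to 7.98 CPM in wild type (log2 fold change 1.43, SE 0.22, adjusted p = 5.75e-05). HSP90-1, its stress-induced partner, had 5.38 to 9.63 against 3.06 to 4.48 CPM (1.05, SE 0.19), and the mitochondrial small chaperone gene HSP23.5 had 3.40 to 6.15 against 0.212 to 2.22 CPM (2.15, SE 0.41). None of these 3 overlapped between groups and each was called in all 25 alternative analyses. HSP17.8 rose by 0.92 and lost the call in 15 of them. The other tested members, HSP101 and HSFA2 among them, were not called, at 4.71 to 6.25 against 1.995 to 9.81 CPM for HSP101. The heat-shock element GAANNTTC was in the windows of 13 of 25 members (52%, all windows 11.6%), and HSP70-4 was the only one of them that rose.

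Of 17 meristem and boundary genes tested, 6 rose (35.3%, against 9.18% of all genes) and 2 fell (11.8%, against 8.67%), with a median of 0.38. Against wild-type replicates 5 to 8, 2 were higher and 1 lower. LSH4, a boundary factor downstream of CUC1, had 14.7, 9.89, 17.2 and 12.7 CPM in ddm1 and 5.39 to 7.68 CPM in wild type (log2 fold change 1.11, SE 0.16, adjusted p = 4.3e-05). KNAT6, a KNOX homeodomain factor of the boundary, had 5.55, 5.93, 8.9996 and 7.67 CPM against 3.29 to 4.26 (0.92, SE 0.18), and LOB, LSH3, KNAT2 and the cytokinin-response gene ARR5 also rose, by 0.70 to 0.98. AGO10, which keeps microRNA165/166 away from AGO1 in the meristem, fell in every library, 12.7, 12.3, 13.6 and 10.2 CPM against 17.76 to 25.9 (log2 fold change -0.80, SE 0.13, adjusted p = 0.000181). HAM1, a GRAS factor, fell by 0.37. STM (4.11 to 8.03 against 3.17 to 6.14 CPM, adjusted p = 0.0649) and KNAT1 (6.81 to 11.9 against 4.999 to 10.1 CPM) were not called. PHV, a class III HD-ZIP factor of upper leaf identity, had 18.3, 29.9, 22.2 and 19.3 CPM against 11.5 to 17.78 (0.64, SE 0.15), and AS1, a MYB factor of leaf initiation, rose by 0.42; they were the 2 called of 10 leaf genes (20%). In the epidermis list, 2 of 15 fell (13.3%): EPF1, a stomatal spacing peptide, fell by 0.97 and ATML1, the epidermal identity factor, by 0.34. In the vascular list, 2 of 9 tested rose (22.2%), the xylem proteases XCP1 and XCP2 by 0.94 and 0.91, and the other 7 were not called. Against wt col-0 alone, and against wild-type replicates 5 to 8, 1 vascular gene was higher. Markers of tissues outside the apex were low: of 8 root genes 4 were at 0 in all libraries and WOX5 alone was tested and rose (1.52 to 2.53 against 0.389 to 2.16 CPM), and of 12 seed-storage genes 6 were at 0.

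The remaining lists had 7 to 16 members tested and 1 to 4 called, too few to read against the share of all genes. Lists above with as few tested, such as heat shock (12) and flowering time (14), carry the same limit, and their shares are a description. The auxin synthesis gene YUC4 rose (log2 fold change 1.299, SE 0.34), while the auxin exporter gene PIN3 fell by 0.71. Of the indolic glucosinolate genes, CYP83B1 (15.2 to 25.2 against 29.4 to 46.4 CPM, -0.86, SE 0.15), CYP79B3 and SOT16 fell, and their activator MYB51 rose from a low level. ESM1, which directs glucosinolate breakdown to isothiocyanates, rose (209, 124, 67.6 and 107 against 41.6 to 70.5 CPM, 1.15, SE 0.19), and the myrosinase genes TGG1 and PYK10 fell by 0.52 and 0.53. Calmodulin-like TCH3 was the only touch-response gene that rose (29.1 to 41.2 against 10.3 to 23.9 CPM, 0.99, SE 0.16). Among abscisic acid and drought genes, HAI1, a phosphatase, rose by 1.17 and the dehydrin ERD10 by 0.55. PAP17, PHO2 and NMT3 of the phosphate-starvation list rose by 1.18, 0.66 and 1.13 against wild-type replicates 1 to 4. This turned with the controls: against wild-type replicates 5 to 8, 7 phosphate genes were lower and none higher, PAP17 at -3.17. Of 16 flavonoid genes tested, MYBL2 alone was called, lower by 1.39 on the log2 scale.

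**Figure D5:**
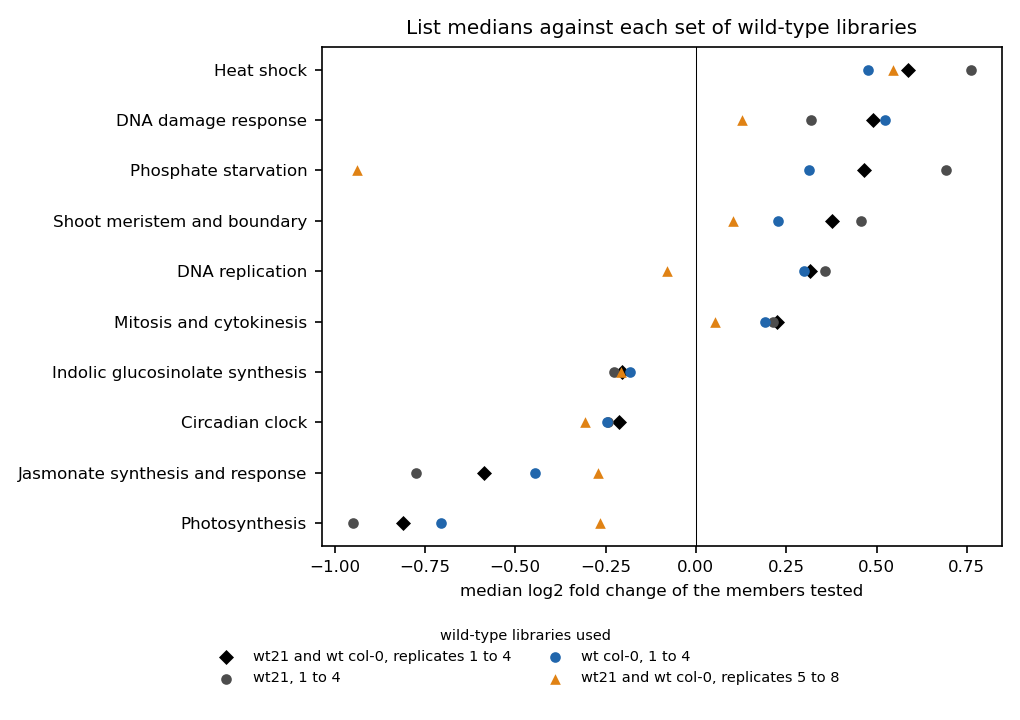
Median log2 fold change of the members tested in 10 lists (x axis) when ddm1 is set against wt21 and wt col-0 replicates 1 to 4, either of them alone, or wild-type replicates 5 to 8. Replication (-0.08) and phosphate starvation (-0.94) turn negative against replicates 5 to 8, and the other lists keep their sign with all 4 sets. Keeping the sign does not mean keeping the size. Against replicates 5 to 8, photosynthesis moves from -0.81 to -0.26, DNA damage from 0.49 to 0.13 and mitosis from 0.22 to 0.05, while heat shock stays near (0.59 and 0.55).

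Families grouped by the words of their RefSeq product names gave a further view. Of 337 ribosomal proteins whose name mentions no organelle, 100 rose (29.7%, against 9.18% of all genes) and 18 fell (5.34%, below the 8.67% of all genes), with a median of 0.30. The name rule does not keep out all plastid proteins: those that fell include RPS9, RPS1, RPL15, RPL27, PRPL28, PRPL35 and EMB3126, which are known as plastid ribosomal proteins, by 0.43 to 0.58 on the log2 scale. Those that rose were not checked for organelle proteins either. AT5G39600, named a 39S ribosomal protein, is among them, so the 100 are not all taken as cytosolic. The 3 that rose by more than 2-fold were low in wild type, and AT1G36240 went from 0 to a mean of 3.87 CPM. Their number was among the least stable values: 196 rose without ddm1 replicate 3, whose summed level was the lowest of the 4 (133810 against 188190 to 218750 CPM), and 16 rose against wild-type replicates 5 to 8.

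The other families are read against 9.18% higher and 8.67% lower over all nuclear genes. Of 109 proteins tested whose product name gives an F-box, 12 fell (11%). None of them rose with edgeR or DESeq2, and 1 rose with limma voom (3 higher at an unadjusted p under 0.05). The name rule missed SDC, an F-box protein that rose (above), so the family is not complete. The largest drop was that of AT1G23390, a Kelch-repeat protein (8.16 against 47.0 CPM, log2 fold change -2.50). Of 74 cytochrome P450 enzymes, 12 fell (16.2%) and only ROT3, of brassinosteroid synthesis, rose. UDP-glycosyltransferases fell in 8 (12.1%) and rose in 2 of 66. Against wild-type replicates 5 to 8, F-box proteins were lower in 6, P450 enzymes higher in 5 and lower in 12, and UDP-glycosyltransferases higher in 6 and lower in 18. The NB-LRR receptors that fell were RPP7, RPP1 and RLM3, 3 of 58 (5.17%), a share below that of all genes. The family median was -0.35, and 0.02 against wild-type replicates 5 to 8, where 4 were higher and 2 lower. Receptor-like kinases fell in 7 of 80 (8.75%), near the share of all genes. Of 22 MADS-box factors, the 3 that rose were AT1G59920, AT1G59930 and SEP3, and the 5 that fell were AGL87, FLC, MAF1, MAF4 and MAF5. A defensin-like gene of high level, AT3G05730, fell by 2.18 on the log2 scale. WRKY14 was the only one of 17 WRKY factors called (log2 fold change 1.78, SE 0.32). Of 43 histone genes, 3 rose (6.98%, below the share of all genes) and none fell with edgeR or DESeq2 (0 at an unadjusted p under 0.05), but 12 were lower against wild-type replicates 5 to 8.

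Some called genes were next to each other on the chromosome, which is given as a description with no comparison to the number that unrelated calls would give. Adjacent protein-coding genes called higher formed 101 runs with 211 genes (15.2% of the 1385 called higher), and those called lower 70 runs with 149 genes (11.3% of 1317). The longest held 4 genes, and there were 4 of that length. On chromosome 1, CDSP32, SMT3, PETE1 and AT1G76110 fell by 0.52 to 1.15 on the log2 scale. A run on chromosome 3, DJ1A, RIP1, AT3G15010 and mMDH2, rose by 0.55 to 0.97. Reads of overlapping neighbours could not be separated here, since the use of strand in counting is not given.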

How the data were processed

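The authors deposited estimated counts for each feature and library, neither scaled nor pooled; 6.26% of non-zero values are not whole numbers. The submitters' processing notes name the TAIR10 genome build and DESeq2, with no role. The aligner, the counting program, the use of strand and whether molecular identifiers were counted are not given in the sources used here. Counts were rounded. Features with few counts were removed by filterByExpr, which left 16524 features, 15472 of them nuclear genes, and libraries were scaled by TMM factors (0.906 to 1.235). A quasi-likelihood model with 1 mean for each of the 3 groups was fitted to 12 libraries in edgeR 4.0.16 (R 4.3.3; common biological coefficient of variation 0.193). The contrast was ddm1 minus the average of both wild types, with Benjamini-Hochberg adjustment across every feature that entered the fit. Of the alternatives, DESeq2 1.42.0, limma 3.58.1 voom, other scalings, other wild-type libraries, no filter, thinning to 4985458 counts and leaving out each library were run. On counts simulated for 16048 features of this comparison, 71.13% of genes changed 2-fold and 100.0% of those changed 4-fold were recovered, with 4 false calls. Among 18 replicate pairs none was identical, and chi-square per degree of freedom was 2.84 to 128.4. It was 20.6 to 128.4 between ddm1 libraries, 2.84 to 25.7 within wt21 and 4.29 to 14.6 within wt col-0. The ddm1 libraries thus differed most among themselves, and some of them were also deeper. Symbols, product names and sequences are from RefSeq (TAIR10.1), which matched 28929 of 29417 nuclear loci. Other steps ran in Python 3.11.15 (matplotlib 3.10.9, scipy 1.17.1, numpy 2.4.6, pandas 2.3.3). The genes named were DDM1, the 10 with the smallest p and 5 with the largest fold change in each direction (called, over 2-fold, at least 5 CPM in the higher group, no overlap of groups), up to 4 called members of each list in each direction, members that define a list, and the longest runs of neighbours. Genes named beyond this rule were chosen after their values were seen. A few genes that the rule names are not reported here. The genes and lists were chosen with earlier results of these data known.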

Additional observations from a re-analysis of the deposited data

Results flagged for a closer look

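One transgene sequence was detected outside the gene comparison. Counts of mCherry, a reporter listed in the table but not named in the labels of these groups, were 10, 14, 6 and 14 in ddm1 replicates 1 to 4. They totalled 11 in wt21 replicates 1 to 4, 23 in wt21 replicates 5 to 8 and 0 in all 8 wt col-0 libraries, and Clover, the other reporter, was at 0 in each of these groups.

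In 27 of 354 groups of 4 libraries, the highest or lowest library stood far from the other 3, where chance gives about 1 in 20. That rate does not hold for genes at 0 in 3 libraries, where any count in the remaining library gives a flag. Among list sums, jasmonate genes were at 273.5 CPM in wt21 replicate 1 (181.0 to 191.1 in the others) and small-RNA genes at 264.5 CPM in ddm1 replicate 2 (208.2 to 213.5). In ddm1, AT5G26270 was at 181.4 CPM in replicate 2, YUC4 at 3.599 CPM in replicate 1, PCNA2 at 45.83 CPM and LHCB1.4 at 605.2 CPM in replicate 3, and AT3G16670 at 0.8916 CPM in replicate 4. FLC was at 0.1385 CPM in ddm1 replicate 3 and at 0 in the other 3.

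Wild-type libraries that stood apart for genes silent elsewhere in their group were all at the level of 1 to 3 counts: AT3G01345 and AT2G34655 at 0.1748 CPM in wt21 replicate 2, AT5G45095 at 0.2116 CPM in wt21 replicate 4, AT1G59930 at 0.1663 CPM in wt21 replicate 1, and QQS at 0.4383 CPM in wt21 replicate 3. In wt col-0, AT2G34655 and FWA were at 0.3133 CPM in replicate 3 and SDC at 0.4368 CPM in replicate 2.

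For expressed genes, wt21 replicate 1 had EPF1 at 9.976 CPM and CYP83B1 at 46.39 CPM, both high, and wt21 replicate 2 had AT1G52000 at 25.86 CPM, low. SEP3 was low at 0.2116 CPM and AGO10 high at 23.49 CPM in wt21 replicate 4. LHCB2.3 was low in wt21 replicate 3 (691.6 CPM) and high in wt col-0 replicate 3 (915.4 CPM). In wt col-0, SOT16 (36.47 CPM) and YUC4 (2.407 CPM) were high in replicate 4, PAP17 (1.751 CPM) in replicate 1 and MOM1 (7.862 CPM) in replicate 2.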

How the results depend on the processing

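Against 1 wild type alone, 1599 nuclear genes were called with wt col-0 and 1570 with wt21 in place of 2762, and 1500 and 1506 of these were called in the same direction with both. Against wild-type replicates 5 to 8 the number was 2368, 38.4% of them higher in place of 51.4%, and 1000 were shared in direction. With all 16 wild-type libraries it was 1971 (42.4% higher). Without the filter on low counts 870 genes were called over 2-fold in place of 533, 59.7% of them higher in place of 44.8%, since 22318 genes then entered the test. Leaving out 1 library gave 1888 (without ddm1 replicate 4) to 3113 (without ddm1 replicate 3) calls, 505 to 595 over 2-fold, and a difference in transposable element share of 4.74 to 5.005 percentage points around 4.845. Over all other settings that difference was 4.839 to 5.646 points, and with 4 control libraries its exact permutation p was 0.0286.

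Replicate numbers gave no pairing common to both wild types: deviations of same-numbered ddm1 and wild-type libraries correlated at -0.205 to 0.170, over 0.1 in 2 of 8 pairs. In 3 of 8 comparisons a ddm1 library correlated best with its own number. All 3 were against wt21 (ddm1 replicates 2, 3 and 4, at 0.125, 0.170 and 0.0587), and none was against wt col-0. A pairing with wt21 alone was not tested. With a replicate block 2442 genes were called, 518 over 2-fold, and the permutation p for transposable elements was 0.0247.

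Of 166 genes chosen for naming, 67 kept call and direction in each of the 25 alternatives that tested them, and 99 lost the call at least once. Calls were lost against wild-type replicates 5 to 8 (60) and all 16 wild-type libraries (52), against wt21 or wt col-0 alone (41 each), and without ddm1 replicate 1, 2, 3 or 4 (19, 21, 9 and 24). Each of the other settings lost 0 to 11. Directions turned in 17 cases, and the cause was not tested. Against replicates 5 to 8 the log2 fold changes became -0.25 for TSO2, -0.0171 for CYCB1;3, -0.14 for AT5G10390, -3.17 for PAP17 (-2.33 against all 16), -0.0638 for AT1G11410, -0.36 for GSTF10, -0.25 for GSTF2, -0.13 for EXPA11 and -0.38 for XTH32, which had been positive. They became 0.11 for LNK2, 0.14 for ATML1, 0.0444 for MYBL2, 0.40 for AT4G26540, 0.23 for UGT74F2, 0.80 for AT4G38860 and 0.18 for AT4G34760, which had been negative. Of 1125 list medians, 1030 moved by less than 1 SD.

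Depth limits low genes: 3 counts equal 0.237 to 0.657 CPM. In simulated counts, 2-fold changes were recovered less often than 4-fold changes, which was not split by level or depth. All simulated wild-type libraries shared the same mean for each feature, so the recovery does not cover shifts between sets of controls.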

Other observations

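The families below are read against 9.18% higher and 8.67% lower over all nuclear genes. Of 29 expansins and xyloglucan endotransglucosylases tested, 5 rose (17.2%) and 4 fell (13.8%). XTH4, the most abundant of those called (mean 171.6 CPM in ddm1 and 305.7 CPM in wild type), fell by 0.83 on the log2 scale (SE 0.14). EXPA11 rose by 1.22 (SE 0.30) and XTH32 by 0.96 (SE 0.24), but against wild-type replicates 5 to 8 these became -0.13 and -0.38. Of 36 lipid-transfer proteins, 6 rose (16.7%) and 4 fell (11.1%), with AT3G53980 at 1.55 (SE 0.29) and AT5G48490 at -2.13 (SE 0.20).

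SAUR genes, quickly induced by auxin, fell in 4 (14.3%) and rose in 1 of 28. Their summed level was 134.5 to 220.7 CPM in ddm1 and 224.4 to 324.9 CPM in wild type, without overlap. The median of their log2 fold changes was -0.19, and it was positive against wild-type replicates 5 to 8 (0.50), against all 16 wild-type libraries (0.06) and without ddm1 replicate 2 (0.03).

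Pentatricopeptide repeat proteins, which process organelle transcripts, rose in 6 (4.23%) and fell in 11 (7.75%) of 142 tested, both shares below those of all genes. Among those that fell, CRR22 and DYW1, both needed to edit plastid RNA, fell by 1.11 and 0.74, and MRL1, which stabilises the plastid transcript of the Rubisco large subunit, by 0.55 on the log2 scale. Of 9 meiosis genes 2 were tested, and DMC1, the meiotic recombinase, rose by 0.72 (SE 0.22, adjusted p = 0.0237 with edgeR), with 8.11 to 16.1 CPM in ddm1 and 3.94 to 9.14 CPM in wild type. DMC1 kept the call in 19 of 25 alternatives, with edgeR, DESeq2 or limma adjusted p from 0.00547 to 0.909, and lost it against each wild type alone and against wild-type replicates 5 to 8.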
